A study of Mus musculus with 6 samples.

Results

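The comparison described here set a mouse embryonic stem cell line that carried the DNA methyltransferase DNMT3B1 and lacked SETD2 against a line that carried DNMT3A2 and had SETD2. It used 4 of the 6 samples of the series, 2 sequencing runs per line, chosen by their titles, and 8105431 autosomal CpG sites of the 20782144 sites in the series table. A site was compared with at least 10 reads in the knockout and 5 in the DNMT3A2 line, and with at most 80 and 45 reads. Both lines were triple-null for Dnmt1, Dnmt3a and Dnmt3b, so the reintroduced enzyme was the only one of these methyltransferases they carried, and the knockout line was Setd2-null in addition. The remaining line of the series, triple-null cells with DNMT3B1 and intact SETD2, differs from the knockout in labelled genotype by SETD2 alone. Its values are given beside the 2 main lines where they help. The titles name sequencing instruments for both lines with SETD2, and single-end or paired-end runs for the knockout. The labelled sequencing and the loss of SETD2 thus changed together, and their parts cannot be told apart. CpG methylation was read by whole-genome bisulfite sequencing, in which unmethylated cytosines are converted and a cytosine that remains counts as methylated.

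Both lines are limited as models in the same way. The labels name no separate cultures or clones, so each line was 1 library, and no p-value between lines was computed. The growth protocol was shared and named feeder cells or gelatine as the support, and how much of either enzyme the cells made is not part of these data. The enzyme (DNMT3B1 or DNMT3A2) and the loss of SETD2 changed together between the main lines, so what belongs to the enzyme and what belongs to SETD2 cannot be told apart from the main comparison. The files hold 1 set of knockout values, deposited as identical copies for the single-end and the paired-end run, and these were counted as 1 sample.

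As background, DNMT3A and DNMT3B set DNA methylation at new sites, and DNMT1 copies it after replication. Without DNMT1, methylation is lost at each cell division and has to be set again, so levels in these cells are low. DNMT3A2 is the short DNMT3A isoform that embryonic stem cells express, and DNMT3B1 is the long catalytically active isoform of DNMT3B. SETD2 places trimethylation on lysine 36 of histone H3 (H3K36me3) along transcribed gene bodies, and the PWWP domain of DNMT3B binds that mark. The comparison therefore shows how the methylation pattern of DNMT3B1, in cells without the SETD2-dependent mark, lies against that of DNMT3A2.

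Over the sites compared, the knockout had 5.92% of reads methylated (exact 95% binomial interval 5.91% to 5.92%, 150998717 reads) and the DNMT3A2 line 7.29% (7.28% to 7.29%, 103134776 reads). The ratio was 0.812, and on the 19 autosomes it lay between 0.782 and 0.843. Mean coverage was 18.6 reads in the knockout and 12.7 with DNMT3A2. On the 7047535 of these sites that also had at least 5 reads with DNMT3B1 and SETD2, the levels were 5.87% in the knockout, 7.28% with DNMT3A2 and 2.75% with DNMT3B1. The knockout was thus nearer in level to the DNMT3A2 line than to the line with its own enzyme. All intervals cover error within a library only, because each line was 1 library. The treatment of duplicate reads is not given in the sources used here, and unconverted cytosines enter the levels. Reads are counted per site, so the exact intervals are too narrow where neighbouring CpGs share reads. In 10 kb tiles the variance between 500 bp stretches was 5.54 (knockout) and 5.39 (DNMT3A2) times the binomial variance.

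Where the lines differed beyond this overall ratio was measured by the relative log2 ratio, the log2 ratio of the levels of a region minus the log2 of the genome-wide ratio. A value of 0 means that a region follows the genome, and a value of 1 that the knockout is 2-fold above what the genome-wide ratio gives. Local CpG density, counted as CpG sites within a 1 kb window centred on each site, separated the lines at both ends. At 1 to 4 CpGs per kb the knockout had 6.48% and DNMT3A2 5.47%, a relative log2 ratio of 0.54 (0.43 to 0.64 over the autosomes). At 10 to 19 CpGs per kb, which held 44.0% of sites, the order was turned, with 6.94% and 9.17% and a relative log2 ratio of -0.10 (-0.14 to -0.05). The bin of 20 to 39 CpGs per kb had 5.05% and 6.77%, a value of -0.12.

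The densest DNA, which includes the CpG islands, was nearly free of methylation in both lines but less so in the knockout. At 60 or more CpGs per kb the level was 0.466% in the knockout and 0.211% with DNMT3A2, a relative log2 ratio of 1.44 that ranged from 0.73 to 1.77 over the autosomes. The bin of 40 to 59 CpGs per kb had 1.17% and 0.923%, a value of 0.64 (0.30 to 0.95). At levels this low, unconverted cytosines weigh more than elsewhere, and their share was not measured here. The line with DNMT3B1 and SETD2, set against the same DNMT3A2 reads on the 3-line sites, had relative log2 ratios of 0.41 at 1 to 4, -0.07 at 10 to 19, 0.32 at 40 to 59 and 0.95 at 60 or more CpGs per kb. On those sites the knockout had 0.53, -0.09, 0.64 and 1.45. Both comparisons share the DNMT3A2 library.

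**Figure D1:**
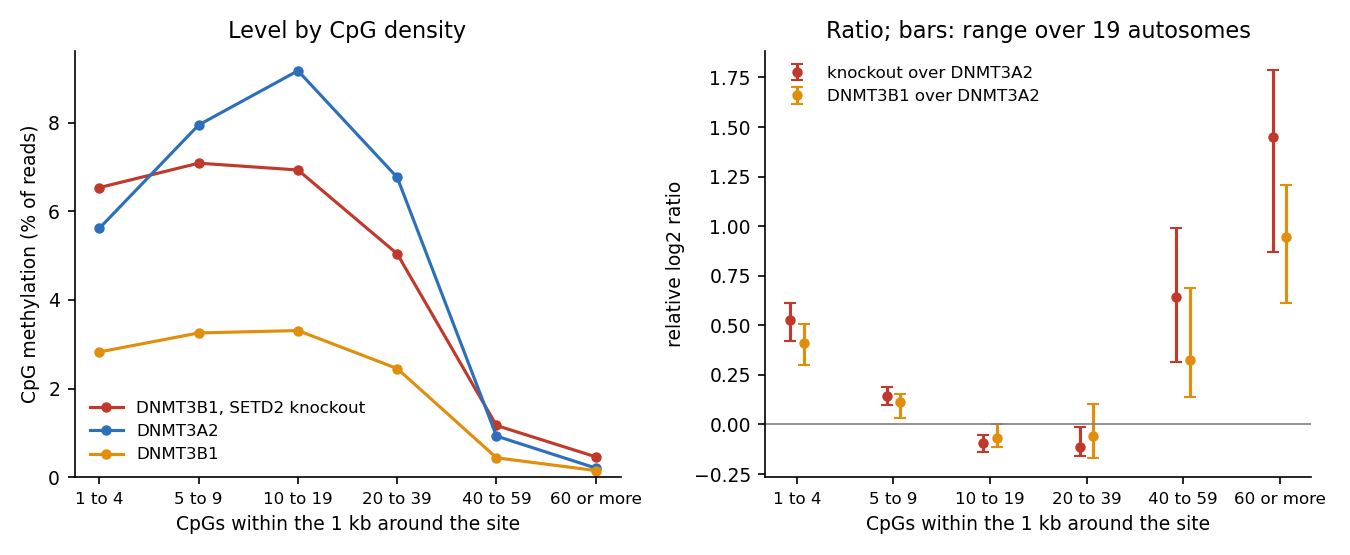
Left, CpG methylation (percent of reads) in the 3 lines by the number of CpGs in the 1 kb around a site, on 7047535 sites; right, relative log2 ratio over DNMT3A2 of the knockout and of the DNMT3B1 line, with bars for the range over 19 autosomes. The knockout lies above DNMT3A2 at 1 to 4 CpGs per kb and below it at 10 to 19.

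At the scale of 1 Mb, the methylation of the DNMT3A2 line followed CpG content and that of the knockout did not follow it to the same extent. Of 2193 tiles of 1 Mb ranked by CpG sites per kb, the poorest decile (median 4.83 sites per kb) had a median level of 4.13% with DNMT3A2 and 5.65% in the knockout. The seventh decile (9.56 sites per kb) had 8.04% and 6.42%, and the richest (13.5 sites per kb) 7.52% and 5.68%. From the poorest to the seventh decile DNMT3A2 thus gained more than the knockout. The DNMT3B1 line went from 2.43% to 2.96% and 2.68%, in the same deciles.

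In the poorest decile the knockout was above DNMT3A2 in absolute level in 196 of 220 tiles, and in the richest in 0 of 220. The median relative log2 ratio of the knockout over DNMT3A2 fell in steps from 0.74 to -0.09 over the deciles, and that of DNMT3B1 over DNMT3A2 was 0.65 in the poorest and -0.06 in the richest. In tiles the DNMT3B1 level used only sites with 5 to 40 DNMT3B1 reads, and the DNMT3A2 level used all sites compared. The latter ratio thus rests on unlike sets of sites. Coverage moved with CpG content as well, from 15.1 to 19.1 reads per site in the knockout and from 9.80 to 12.9 with DNMT3A2, and its part in the result was not tested. In all 1 Mb tiles the coefficient of variation of the level was 0.141 in the knockout and 0.267 with DNMT3A2.

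**Figure D2:**
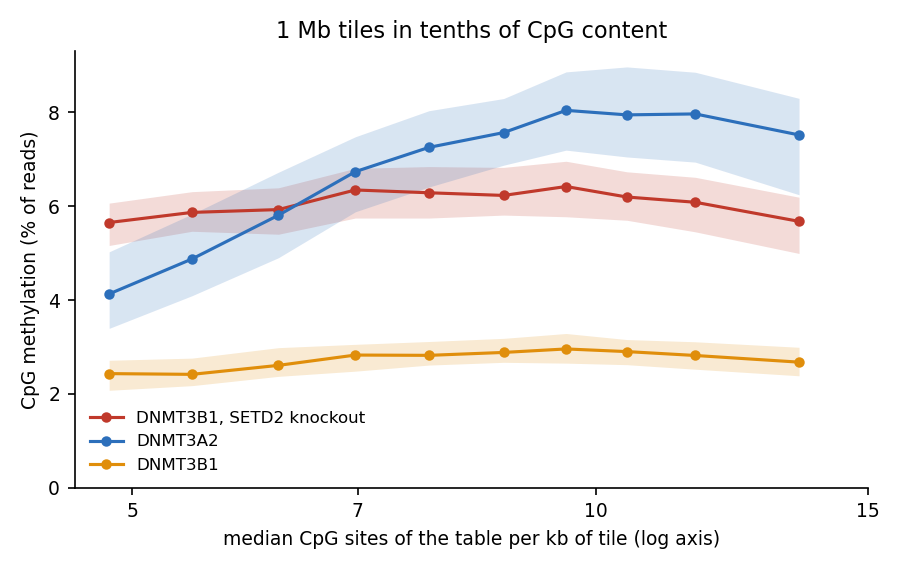
Median CpG methylation (percent of reads) of 1 Mb tiles against their median CpG content (sites per kb, log axis) in the 3 lines, for deciles of 219 or 220 tiles; shaded bands span the first to the last quartile boundary. The DNMT3A2 line climbs from 4.13% to 8.04% while the knockout stays between 5.65% and 6.42%.

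Tiles were called when their relative ratio reached 2-fold, their 99% interval excluded 0 and they had at least 3 methylated reads in each line. At 1 Mb, 67 of 2193 tiles (3.06%) were called relatively higher in the knockout and 0 lower. The called tiles lay on 18 chromosomes and had median levels of 5.41% in the knockout, 2.95% with DNMT3A2 and 2.14% with DNMT3B1, against 6.04%, 6.96% and 2.75% over all 1 Mb tiles. The called tiles thus had a low DNMT3A2 level and a knockout level somewhat below that of all tiles. With at least 10 reads in both lines 20 tiles were called higher, and with 20 reads in the knockout and 10 with DNMT3A2 none was. With an interval from the residuals of both lines paired by cluster, 68 (3.1%) were called higher and 0 (0%) lower.

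The highest 1 Mb tile, chr6:110000001-111000000 (build mm9), holds the start of Grm7, a metabotropic glutamate receptor gene. The knockout had 766 of 16343 reads methylated (4.69%), DNMT3A2 173 of 11290 (1.53%) and DNMT3B1 200 of 9192 (2.18%), which gives 1.91 as the relative log2 ratio (99% interval 0.98 to 2.85). Next came chr17:94000001-95000000, with 5.99% in the knockout, 2.32% with DNMT3A2 and 2.57% with DNMT3B1, a value of 1.67, and chr18:86000001-87000000, with 4.64%, 2.01% and 1.42%, a value of 1.51. In each of them the low DNMT3A2 level, not a high knockout level, stood out from the median of all tiles. At the other end, chr13:44000001-45000000 holds the start of Jarid2, a subunit of the Polycomb complex PRC2. It had 6.32% in the knockout (5004 of 79157 reads) and 10.1% with DNMT3A2 (5392 of 53277), a value of -0.38 (-0.59 to -0.17). The tiles at chr17:7000001-8000000 and chr19:56000001-57000000 had -0.34 and -0.33, with 10.2% and 11.4% with DNMT3A2, and the second of them holds the start of the beta-1 adrenergic receptor gene Adrb1.

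In 33855 tiles of 50 kb with 3 methylated reads in each line, 32 were called higher (0.0945%) and 7 lower (0.0207%), and with the paired interval 1106 (3.27%) and 31 (0.0916%). In 122985 tiles of 10 kb, 35 were called higher (0.0285%) and 163 lower (0.133%), and with the paired interval 2928 (2.38%) and 1812 (1.47%). At 10 kb the direction that held more calls thus turned with the way the interval was made. The shares under the first rule are below what a 99% interval leaves outside by construction, so a single called tile is not an established difference. With no coverage maximum, 0 tiles of 10 kb or 50 kb were called in either direction and 2 of 1 Mb were called higher. In that setting the 99% interval of every tile named in this report included 0. The relative log2 ratio of the highest 10 kb tile was 3.95 there against 3.90, and of the lowest -4.74 against -4.79. At chr13:23490001-23500000 it was 2.64 against 2.37. The variance of a tile is at least that given by the design effect of all tiles, so sites outside a tile also enter its interval. In absolute level the knockout was above DNMT3A2 in 32.5% of the 10 kb tiles, 28.9% of the 50 kb tiles and 26.8% of the 1 Mb tiles.

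The 163 lower 10 kb tiles were places of unusually high DNMT3A2 methylation. Their median level was 16.7% with DNMT3A2 (middle range 14.6% to 19.4% by quartiles), against 8.0% in all tiles. In the knockout it was 5.17% and with DNMT3B1 3.63%, against 6.59% and 2.78% in all tiles. The 35 higher tiles had 3.32% with DNMT3A2, 9.72% in the knockout and 2.20% with DNMT3B1. Since the tiles were chosen on the ratio of knockout to DNMT3A2, only the DNMT3B1 values are apart from that choice.

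The highest 10 kb tile, chr12:57630001-57640000, has 61.9 CpGs per kb and holds the start of Nkx2-1, the homeobox gene of thyroid, lung and ventral forebrain. There 133 of 4632 reads were methylated in the knockout (2.87%), 8 of 3378 with DNMT3A2 (0.237%) and 13 of 3196 with DNMT3B1 (0.407%), which gives a relative log2 value of 3.90 (0.72 to 7.08). A tile around the start of Nkx6-1, a homeobox gene of pancreas and ventral neural tube, at chr5:102090001-102100000, had 98 of 3487 reads in the knockout (2.81%), 13 of 2289 with DNMT3A2 (0.568%) and 3 of 1791 with DNMT3B1 (0.168%), a value of 2.61 (0.05 to 5.16). Both are CpG-dense regions of developmental regulators in which only the knockout line passed 1% of reads. Of the other named tiles, chr11:67890001-67900000 lies in the body of Stx8, a syntaxin gene, and had 10.8% in the knockout against 2.12% with DNMT3A2, a value of 2.65. Those at chr13:23490001-23500000 and chr4:124330001-124340000 had 5.17% against 1.23% and 1.97% against 0.505%, values of 2.37 and 2.27.

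The promoter of Nkx2-1 is printed here to show how few of these reads fall next to the start (250 bases before the start, RefSeq sequence, placed at chr12:57637896-57638145, minus strand) with every CpG and its neighbouring base on each side in capitals:
Nkx2-1: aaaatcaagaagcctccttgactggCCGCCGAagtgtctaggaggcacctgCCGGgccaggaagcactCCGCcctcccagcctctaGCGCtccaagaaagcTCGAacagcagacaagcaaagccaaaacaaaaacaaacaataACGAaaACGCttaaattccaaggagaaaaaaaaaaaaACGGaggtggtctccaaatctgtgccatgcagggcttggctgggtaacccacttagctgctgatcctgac
In the knockout the CpG 198 bases before the start was methylated in 2 of 20 reads and that 181 bases before it in 2 of 14 reads. The other 6 CpGs of the run with knockout values had 0 methylated reads of 10 to 20 each, and all 9 CpGs had 0 methylated reads in the DNMT3A2 and the DNMT3B1 line, in 1 to 12 reads per site. Most of the tile's 133 methylated knockout reads therefore lie outside these 250 bases.

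The lowest 10 kb tile, chr10:12810001-12820000, was the most different of all those named. It holds the start of Plagl1, a maternally imprinted zinc finger gene, and of Hymai, a noncoding RNA of the same imprinted locus. The knockout had 12 of 1283 reads methylated (0.935%, exact 95% interval 0.484% to 1.63%), DNMT3A2 464 of 1456 (31.9%) and DNMT3B1 195 of 1043 (18.7%), for a relative log2 value of -4.79 (-7.45 to -2.13). The promoter of Plagl1 (RefSeq, placed at chr10:12810388-12810637, plus strand, CpGs and their neighbours in capitals as above) is shown because methylated and unmethylated CpGs lie side by side in it:
Plagl1: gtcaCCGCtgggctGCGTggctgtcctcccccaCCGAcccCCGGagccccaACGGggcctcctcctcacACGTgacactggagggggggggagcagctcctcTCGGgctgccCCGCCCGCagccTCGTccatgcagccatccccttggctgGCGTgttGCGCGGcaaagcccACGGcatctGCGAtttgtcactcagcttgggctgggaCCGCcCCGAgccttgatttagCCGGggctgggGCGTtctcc
In the DNMT3A2 line the 8 CpGs from 137 to 68 bases before the start were methylated in 42.9% to 50% of their reads, and in the DNMT3B1 line in 29.0% to 50%. The 4 CpGs from 40 to 8 bases before the start, and the CpGs from 216 to 147 bases before it, had 0 methylated reads with DNMT3A2. In the knockout 1 methylated read of 16 was seen, 77 bases before the start, and 0 at the other CpGs with listed values. The CpGs 216, 209, 198, 180 and 98 bases before the start had no listed knockout value.

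Coverage changed at the same borders in the DNMT3A2 line, from 8 to 13 reads at the unmethylated CpGs to 34 to 37 at the methylated ones. In the DNMT3B1 line it was 24 to 31 reads at the methylated CpGs, and in the knockout it was 11 to 16 reads at those of them with listed values. With DNMT3A2, more reads and more methylation thus occur at the same CpGs, and the part of the extra reads in the result was not tested. In the Plagl1 body, from 2 kb after the start, the lines were close to the genome-wide ratio, with 6.79% in the knockout, 7.58% with DNMT3A2 and 3.01% with DNMT3B1.

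The other low 10 kb tiles were ordinary in CpG density and had 10.0% to 19.7% methylation with DNMT3A2. At chr7:144570001-144580000 the levels were 3.69% in the knockout, 19.7% with DNMT3A2 (140 of 709 reads) and 3.88% with DNMT3B1, a value of -2.12 (-3.61 to -0.63). The tiles at chr10:6240001-6250000, chr8:123700001-123710000 and chr1:187030001-187040000 had 1.49%, 2.54% and 1.95% in the knockout, with values of -2.46, -2.10 and -2.06. The last lies in the body of Rab3gap2, a regulator of vesicle transport. DNMT3B1 methylated 2.19% to 4.62% of reads in these 4 tiles, where its genome-wide level was 2.75%.

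At 50 kb the named tiles followed the same pattern. The 5 highest, on chromosomes 14, 11, 6, 13 and 7, had 1.42% to 2.64% with DNMT3A2, 5.02% to 9.28% in the knockout and 1.52% to 2.44% with DNMT3B1. Of these, chr7:82350001-82400000 lies in the body of Sv2b, a synaptic vesicle protein gene. The 5 lowest had 13.3% to 16.4% with DNMT3A2, 4.85% to 6.31% in the knockout and 2.19% to 4.34% with DNMT3B1. They include chr19:16250001-16300000 in the body of Gnaq, a G protein alpha subunit gene, with 5.31% against 14.7% and a relative log2 ratio of -1.17 (-2.15 to -0.20), and chr4:86300001-86350000 with the start of Plin2, a lipid droplet coat protein gene, with 5.39% against 14.1% and -1.08.

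How much of the spread between tiles is more than counting error was measured from odd-numbered and even-numbered 500 bp clusters of CpGs in each tile, whose shared variation holds no counting error of single reads. The SD of the true log2 ratio of knockout over DNMT3A2 was 0.30 in 10 kb tiles, 0.29 in 50 kb tiles and 0.27 in 1 Mb tiles. That of DNMT3B1 over DNMT3A2 was 0.38, 0.29 and 0.22, and that of the knockout over DNMT3B1 0.34, 0.23 and 0.10. At 1 Mb the 2 lines with DNMT3B1 thus differed least in pattern, with a range over the autosomes of 0 to 0.136 against 0.180 to 0.424 for the knockout over DNMT3A2. At 10 kb the knockout and DNMT3A2 differed least. Their range over the autosomes was 0.224 to 0.333, which overlapped 0.283 to 0.389 for the knockout over DNMT3B1. The log2 levels themselves varied with an SD of 0.21 in the knockout, 0.39 with DNMT3A2 and 0.23 with DNMT3B1 at 1 Mb.

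When tiles were ranked by knockout over DNMT3A2 in the odd clusters and measured in the even ones, the lowest and highest deciles of 1 Mb tiles had median relative log2 ratios of -0.13 and 0.66. In 50 kb tiles they were -0.05 and 0.43, and in 10 kb tiles -0.05 and 0.24. The highest 1 Mb decile had 5.60% in the knockout, 4.42% with DNMT3A2 and 2.38% with DNMT3B1 in the even clusters. Regions relatively higher in the knockout therefore recurred in separate CpGs of the same libraries, and regions relatively lower in it did so by less. Along the chromosome, the Pearson correlation of the relative log2 ratio between 50 kb tiles was 0.36 for neighbours (31654 pairs), 0.17 at 500 kb and 0.08 at 2000 kb, as a description over tiles that share their libraries.

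**Figure D3:**
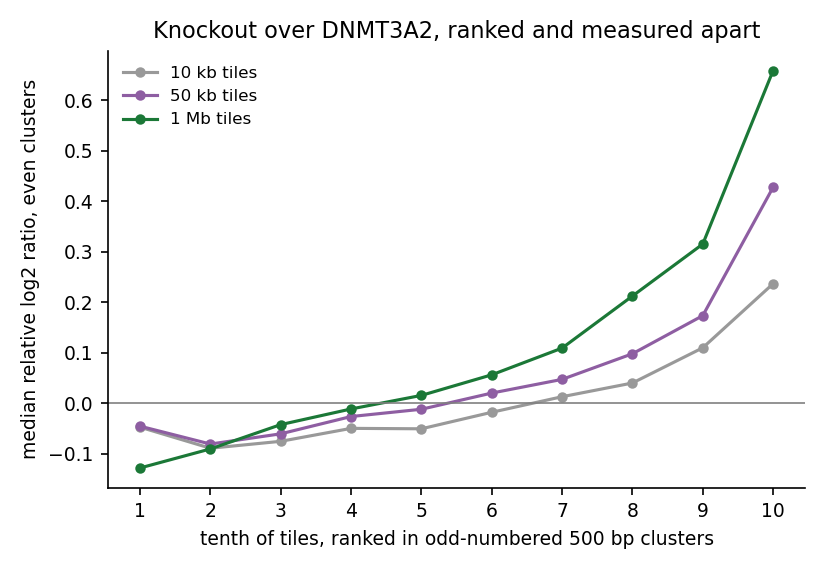
Median relative log2 ratio of knockout over DNMT3A2 in even-numbered 500 bp clusters, for deciles of tiles ranked in odd-numbered clusters, at 3 tile sizes. The lines rise mainly in the highest deciles, to 0.24 in 10 kb, 0.43 in 50 kb and 0.66 in 1 Mb tiles.

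Genes were placed on the files' positions by the spacing of the CpGs in their RefSeq promoter windows. Around the starts of 2918 genes of 50 kb or longer, all lines had a trough of methylation. Within 1 kb of the start the level was 0.772% in the knockout, 0.528% with DNMT3A2 and 0.242% with DNMT3B1, a relative log2 ratio of 0.86 for the knockout over DNMT3A2 and 0.28 for DNMT3B1 over DNMT3A2. From 20 to 50 kb into the gene the levels were 6.86%, 9.16% and 3.42%, and the values were -0.11 and -0.02. From 20 to 50 kb before the start they were 5.83%, 7.28% and 2.74%, at -0.01 for both. All 3 lines were thus higher inside these long genes than before them, and the relative log2 ratio of the knockout over DNMT3A2 was highest at the start itself.

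The relative difference at the start was larger at CpG-rich promoters. At the 1720 starts with 20 or more CpGs in the 300-base window the knockout had 0.596% and DNMT3A2 0.307% within 1 kb, a relative log2 ratio of 1.27. At the 437 starts with 5 to 9 CpGs it was 2.79% against 3.13%, a value of 0.15.

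**Figure D4:**
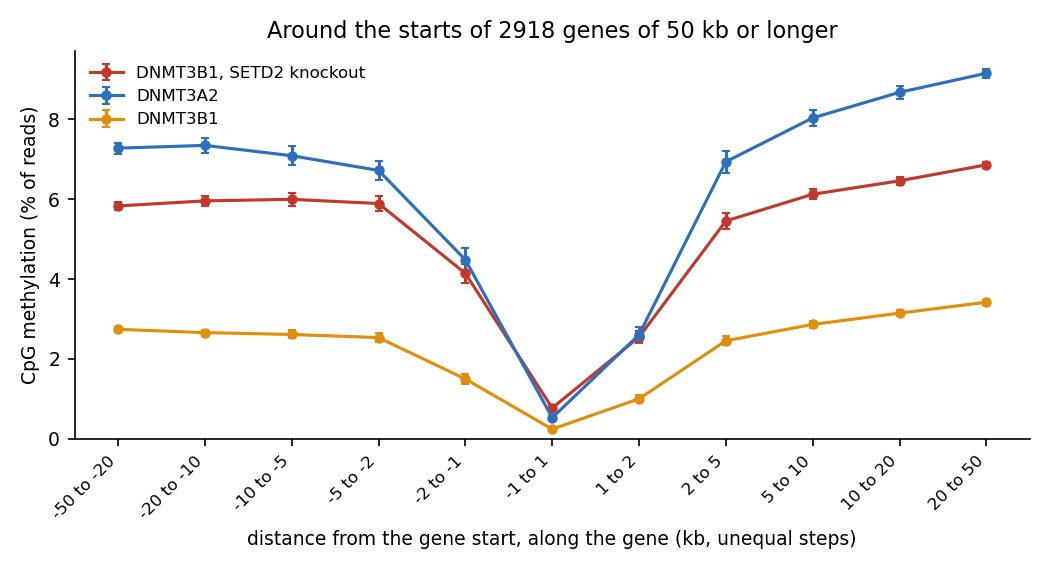
CpG methylation (percent of reads) by distance from the start of 2918 genes of 50 kb or longer (unequal steps, kb) in the 3 lines; bars are 95% intervals from the spread over genes. Every line drops within 1 kb of the start, where the knockout (0.772%) lies above DNMT3A2 (0.528%), and DNMT3A2 is highest from 20 to 50 kb inside.

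Gene bodies, taken from 2 kb after the start to the gene's end, were tested like tiles. Of 8987 bodies, 24 were called relatively higher in the knockout (0.267%) and 5 lower (0.0556%), and with the paired interval 115 (1.28%) and 51 (0.567%). The median relative log2 ratio was -0.05, and the middle 90% of bodies lay between -0.67 and 0.79. In absolute level the knockout was above DNMT3A2 in 20.1% of bodies. The medians were 6.36% in the knockout, 7.97% with DNMT3A2 and 3.34% with DNMT3B1. In gene bodies the DNMT3B1 level used only sites with 5 to 40 DNMT3B1 reads, and the DNMT3A2 level used all sites compared. The gene body ratios of DNMT3B1 over DNMT3A2 below thus rest on unlike sets of sites.

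The highest gene bodies were nearly all long and CpG-poor. Fstl5, a follistatin-like gene of brain, had 202 of 3244 reads methylated in the knockout (6.23%), 29 of 1998 with DNMT3A2 (1.45%) and 25 of 1333 with DNMT3B1 (1.88%), for a relative log2 value of 2.40 (99% interval 0.69 to 4.11). The potassium channel gene Kcnh7 had 7.23% in the knockout, 3.17% with DNMT3A2 and 1.71% with DNMT3B1, a value of 1.49 (0.44 to 2.54). Nrg3, a neuregulin ligand, had 5.0%, 2.45% and 2.31%, a value of 1.33, and its receptor-family member Erbb4 5.14%, 2.55% and 3.52%, a value of 1.31. Trhde, which degrades thyrotropin-releasing hormone, Lrrc4c, a synaptic adhesion gene, Spock3, a testican gene, Itgbl1, an integrin beta-like gene, and Zpbp, a zona pellucida binding protein gene of sperm, had values of 1.39, 1.32, 1.40, 1.71 and 1.51. The body of Hoxa10, short and with 61.1 CpGs per kb, was the exception, with 2.48% in the knockout, 0.658% with DNMT3A2 and 0.664% with DNMT3B1, a value of 2.21 (0.14 to 4.29).

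The 10 lowest gene bodies were 8.59 to 36.7 kb long, where the median of all bodies was 26.9 kb. The 5 called lower had 7.64% to 12.3% with DNMT3A2 against the median of 7.97%. H2az2, a gene of the histone variant H2A.Z, had 2.66% in the knockout (79 of 2972 reads), 7.88% with DNMT3A2 (172 of 2184) and 3.45% with DNMT3B1, a value of -1.27 (-2.48 to -0.05). Sesn2, a stress-induced sestrin, had 3.12%, 8.96% and 3.25%, a value of -1.22, and Mks1, a ciliary transition zone gene, 3.58%, 10.1% and 4.86%, a value of -1.20. Thop1, an oligopeptidase gene, and Cep78, a centrosomal gene, had -1.03 and -1.02, and completed the 5 called lower. The next 5 by size, Atp1b3, Sirt5, Zfp518b, Aldh4a1 and Hadh, had values of -0.97 to -0.85 and did not reach 2-fold.

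The 6 gene lists were read in the same way, each described by its counts and its median beside those of all bodies. They were drawn up after the files had been seen, with earlier results known. Broadly transcribed genes, whose bodies carry H3K36me3 in most cells, lay near the median of all bodies in the knockout against DNMT3A2 and above it in the line with SETD2. Of the 60 listed, 44 were tested, and their median relative log2 ratio was 0.06 for the knockout over DNMT3A2, with 27 of 44 above 0, against a median of -0.05 and 4030 of 8987 above 0 in all bodies. For DNMT3B1 over DNMT3A2 it was 0.91, with 39 of 44 above 0, against 0.12 and 5301 of 8987. Of the 44, 0 were called higher or lower in the knockout by either interval, where 0.267% and 0.0556% of all bodies were called by the first. Their median levels were 6.03% in the knockout, 7.36% with DNMT3A2 and 4.91% with DNMT3B1.

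Single genes of this list are given in reads as examples, and they do not stand for every member. Trrap, a scaffold of histone acetyltransferase complexes, had 1564 of 20070 reads methylated in the knockout (7.79%), 1372 of 14311 with DNMT3A2 (9.59%) and 836 of 12391 with DNMT3B1 (6.75%). Its relative log2 ratio was 0.0020 for the knockout (99% interval -0.32 to 0.33) and 0.90 for DNMT3B1. Dync1h1, the dynein heavy chain gene, had 7.62% in the knockout, 9.78% with DNMT3A2 and 7.68% with DNMT3B1, values of -0.06 (-0.37 to 0.26) and 1.05. Polr2a, the largest subunit of RNA polymerase II, had 7.11%, 8.17% and 6.27%, values of 0.10 (-0.54 to 0.74) and 1.02. Chd4, the helicase of the NuRD complex, had 6.26%, 7.75% and 5.61%, values of -0.01 (-0.48 to 0.46) and 0.94. In these bodies the DNMT3B1 line thus came close to the knockout in level, although its genome-wide level was less than the knockout's.

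The long neuronal genes, which embryonic stem cells transcribe little, were relatively higher than DNMT3A2 in both lines with DNMT3B1. Of 50 listed, 34 were tested, with a median relative log2 ratio of 0.61 for the knockout and 33 of 34 above 0, and 0.59 with 32 of 34 above 0 for DNMT3B1. Fstl5, Erbb4, Dpp10, a dipeptidyl peptidase-like potassium channel subunit, Lrrtm4, a synaptic adhesion gene, and Gpc5, a glypican, were called higher in the knockout, 5 of 34 against 0.267% of all bodies. Among the 305 bodies of 300 kb or more, 16 were called higher and 198 had a ratio above 0, with a median of 0.14. Lrrtm4 had 1026 of 17324 reads methylated in the knockout (5.92%), 413 of 11732 with DNMT3A2 (3.52%) and 223 of 9549 with DNMT3B1 (2.34%), a value of 1.05 (0.56 to 1.55). The exception was Tenm3, a teneurin adhesion gene, with 7.84% in the knockout and 12.4% with DNMT3A2, a value of -0.36 (-0.54 to -0.18). These genes are CpG-poor, and CpG density moved with the ratio in the tiles above, so its part in the list's median was not tested.

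**Figure D5:**
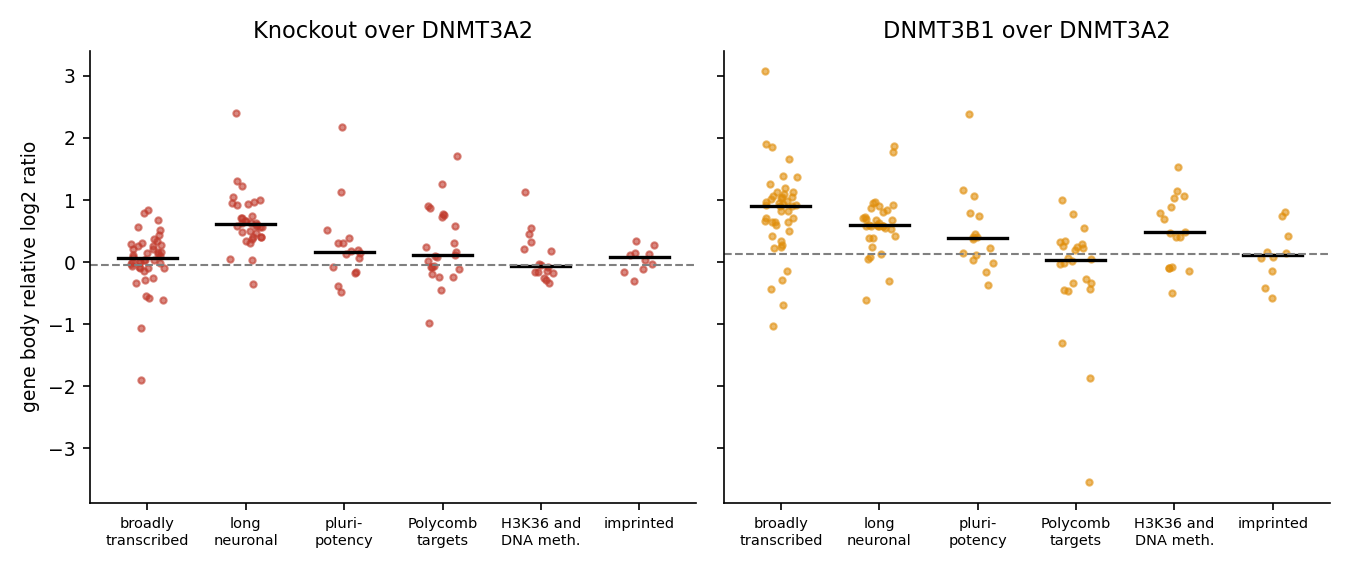
Relative log2 ratio of gene bodies over DNMT3A2, for the knockout (left) and the DNMT3B1 line (right), by gene list; each point is 1 gene, black bars are list medians and the dashed line is the median of all bodies tested. The broadly transcribed genes lie around the dashed line on the left (median 0.06) and above it on the right (0.91), and the long neuronal genes lie above it in both (0.61 and 0.59).

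The 16 tested of 35 pluripotency genes had medians of 0.17 for the knockout and 0.39 for DNMT3B1, and 0 were called. L1td1, an RNA-binding protein gene of stem cells and the 1 member called higher with the paired interval, was highest, with 46 of 1230 reads in the knockout (3.74%), 10 of 979 with DNMT3A2 (1.02%) and a value of 2.17 whose 99% interval of -0.84 to 5.19 included 0. The 24 tested of 60 Polycomb target developmental genes had medians of 0.11 and 0.03, again with 0 called, and Cdx2, a trophectoderm and gut homeobox gene called higher with the paired interval, was highest at 1.71 (-1.42 to 4.84). Of all bodies, 0.267% were called higher and 0.0556% lower, and 1.28% and 0.567% with the paired interval. Next to those shares, 0 or 1 call in lists as small as these does not set a list apart. The 10 tested imprinted genes of 32 had 0.08 and 0.12. Of 34 genes for H3K36 and DNA methylation factors, 16 were tested, with medians of -0.06 and 0.48. Setd2 itself had 6.78% in the knockout, 9.30% with DNMT3A2 and 6.50% with DNMT3B1, values of -0.16 (-0.80 to 0.49) and 0.89. Sites of the Setd2 body had reads in all lines, and where along the body they lie was not examined. This neither checks nor contradicts the label, since the deleted part is not given in the sources used here.

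Below the scale of genes, the bases on either side of the CpG separated the lines. In 6799 promoter windows with 5 to 15 CpGs, 35234 sites were grouped by the base before and after the CpG, both strands read as 1, which gives 10 classes; here ratios are relative to all sites of these windows. TCGA, held by 1049 of the 6799 windows, had 5.30% in the knockout and 2.36% with DNMT3A2, a relative log2 ratio of 1.38 (99% interval 1.02 to 1.73). CCGA (2982 windows) had 4.57% and 2.84%, a value of 0.90 (0.71 to 1.08), and CCGG (2707 windows) 3.18% and 2.19%, a value of 0.75 (0.51 to 0.98). At the other end GCGC (2088 windows) had 1.31% and 2.98%, a value of -0.97 (-1.26 to -0.69), ACGC (2891 windows) 1.97% and 3.83%, a value of -0.75 (-0.96 to -0.54), and ACGT (1557 windows) 2.25% and 4.15%, a value of -0.67 (-0.98 to -0.37). GCGA (2597 windows) and CCGC (3787 windows) had -0.57 and -0.53, and ACGA (2087 windows) and ACGG (3023 windows) 0.11 each, with 99% intervals that included 0 for those last named.

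The DNMT3B1 line with SETD2 had the same sign as the knockout in every one of the 10 classes, with 1.25 at TCGA, 1.05 at CCGA, 0.93 at CCGG, -1.65 at GCGC, -0.78 at ACGC and -0.65 at ACGT. From the lowest to the highest class, levels spanned 4.03-fold in the knockout, 6.17-fold with DNMT3B1 and 1.89-fold with DNMT3A2. Both ratios hold the same DNMT3A2 reads.

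The promoters of Emid1, an emilin domain gene, and Lmod2, a muscle leiomodin gene, show how the lines differ between neighbouring CpGs, both with and against the order of the flank classes. They were picked, after the values were seen, for the most methylated reads in the knockout and DNMT3A2 together. The choice was among protein-coding windows of 5 to 9 CpGs that all met the coverage limits. Chromosomes 8 and 18, and genes named only by a Gm number, were left out of it. The 250 bases before each start (RefSeq; Emid1 placed at chr11:5050078-5050327, minus strand, and Lmod2 at chr6:24547521-24547770, plus strand) read as follows, with each CpG and its neighbours in capitals:
Emid1: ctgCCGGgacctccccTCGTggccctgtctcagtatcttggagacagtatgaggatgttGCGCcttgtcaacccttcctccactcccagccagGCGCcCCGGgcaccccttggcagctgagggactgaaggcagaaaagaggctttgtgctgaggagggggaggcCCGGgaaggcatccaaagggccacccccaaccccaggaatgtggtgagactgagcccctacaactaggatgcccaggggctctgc
Lmod2: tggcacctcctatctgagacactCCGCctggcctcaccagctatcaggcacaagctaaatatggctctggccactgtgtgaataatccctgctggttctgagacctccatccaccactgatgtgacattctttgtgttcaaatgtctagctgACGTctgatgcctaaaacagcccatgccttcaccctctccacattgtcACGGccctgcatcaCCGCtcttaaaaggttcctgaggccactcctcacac
In Emid1, the CCGG 246 bases before the start was methylated in 27.8% of knockout reads, 37.1% of DNMT3A2 reads and 15.4% of DNMT3B1 reads. The GCGC 190 bases before the start had 0 of 27 knockout reads and 0 of 23 DNMT3B1 reads methylated, but 34.5% of 29 reads with DNMT3A2. The CCGG 151 bases before it, in contrast, had 18.2% in the knockout, 25% with DNMT3B1 and 3.57% with DNMT3A2. In Lmod2 the CCGC 35 bases before the start was at 0 of 20 reads in the knockout and 0 of 4 with DNMT3B1, against 42.3% of 26 reads with DNMT3A2, and the ACGG 49 bases before it at 0 of 13 in the knockout and 25% of 4 with DNMT3B1, against 52.4% of 21. Over all 8 CpGs of the Lmod2 window the levels were 4.62% (9 of 195 reads), 27.8% (47 of 169) and 1.35% (1 of 74).

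CpGs in direct succession differed too. Where the next CpG began 2 bases away, as in CGCG, the knockout had 2.26% and DNMT3A2 4.07%, a relative log2 ratio of -0.54 over 313377 sites, and DNMT3B1 over DNMT3A2 had -0.66. Among sites with 5 to 19 CpGs per kb, at similar surroundings, the values were -0.68 and -0.75. With the next CpG 3 bases away, at the same CpG density, the values were -0.09 and 0.04.

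Site by site, the knockout resembled the DNMT3B1 line more than the DNMT3A2 line. Over 7047535 sites, the correlation of deviations from the 500 bp surroundings, corrected for counting error, was 0.16 between the knockout and DNMT3B1, 0.05 between the knockout and DNMT3A2 and 0.05 between DNMT3B1 and DNMT3A2. Against 10 kb surroundings it was 0.17, 0.10 and 0.08. The order of the first pair above the second held on 19 of 19 autosomes, with ranges of 0.142 to 0.191 and 0.0426 to 0.0654. These are weak correlations over sites that share libraries, and duplicate reads would count as variation between sites.

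Single-site classes were taken at 5245207 sites with at least 10 reads in both lines. Sites at 50% or more in the knockout and 10% or less with DNMT3A2 numbered 32904 (0.627%, exact 95% interval 0.621% to 0.634%), and the opposite class 54822 (1.05%, 1.04% to 1.05%). At 50% or more in both lines were 1752 sites (0.0334%). They made up 3.35% of the sites at 50% or more in the knockout, whereas DNMT3A2 was at 50% or more at 1.54% of all sites. They made up 2.17% of those at 50% or more with DNMT3A2, whereas the knockout was at 50% or more at 0.996% of all sites. In the DNMT3B1 line, whose reads took no part in this choice, the pooled level was 6.30% at the knockout-high sites, 4.08% at the DNMT3A2-high sites, 9.83% at sites high in both and 1.86% at sites at 10% or less in both.

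The balance of these classes differed with CpG density. At 1 to 4 CpGs per kb, knockout-high and DNMT3A2-low sites were 1.02% of sites and the opposite class 0.765%. At 10 to 19 CpGs per kb the shares were 0.695% and 1.35%. At 60 or more CpGs per kb, 17 of 420235 sites were in the first class and 33 in the opposite class, although the pooled level was higher in the knockout there, and 0 were high in both lines (exact 95% upper limit 0.000878%).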

How the data were processed

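Whole-genome bisulfite sequencing covered CpG sites in mouse embryonic stem cell lines, 1 library per line. The deposited tables give, per the file headers, the count of reads over each CpG site and the count of methylated reads; the knockout table lists only sites with at least 10 reads. The deposited knockout table also holds a methylated fraction made by the authors, per the file headers, which equals methylated over all reads. Positions follow mm9, a build named in the submitters' processing notes. Which aligner and caller were used, and how duplicates were treated, is not given in the sources used here. Total reads over the sites compared were 150998717 in the knockout and 103134776 with DNMT3A2.

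Levels are methylated over all reads with exact (Clopper-Pearson) 95% intervals. Tiles needed 20 (10 kb), 50 (50 kb) or 500 (1 Mb) sites; 99% intervals used the spread of CpG clusters of 500 bp (ratio estimator), with the variance raised to the design effect of all tiles. Named tiles are the 5 highest and 5 lowest (1 Mb: 3 and 3) whose lines both have 500 reads or more and whose interval excludes 0 (1 Mb: no interval condition). Gene starts were placed by the CpG spacing of RefSeq promoter sequences (GRCm38.p6, 250 bases before to 50 after the start): of 32851 windows, 12496 had fewer than 5 CpGs, 1956 were not found and 18148 were found once, 18147 of these on the chromosome named. No coordinate was converted between builds; gene lengths are distances within the RefSeq build. Named gene bodies are the 10 highest and 10 lowest under the same conditions. The members of the comparison and the gene lists were chosen with earlier results of these data known, and genes, flanks and lists were added after the files were seen. Software was pandas 2.3.3 and numpy 2.4.6 under Python 3.11.15, scipy 1.17.1 for intervals, and matplotlib 3.10.9.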

Additional observations from a re-analysis of the deposited data

Results flagged for a closer look

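Some sites lay outside the autosomal comparison but carried methylation above the limit that a count of 0 allows. On the X chromosome, 36628 sites met the same coverage limits and were methylated in 5.40% of reads in the SETD2 knockout and 5.52% with DNMT3A2, a ratio of 0.979 against the range of 0.782 to 0.843 on the autosomes; the difference from the autosomes was not tested, and few X sites reach the coverage minimum. At the 2714 autosomal sites above both coverage maxima, the level was 5.35% in the knockout and 8.0% with DNMT3A2, a ratio of 0.669.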

How the results depend on the processing

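The genome-wide ratio, 0.812, was 0.800 with 10 reads in both lines, 0.791 with 20 and 10 reads, 0.817 with 10 and 1, 0.782 with no coverage maximum, 0.770 with the background of the densest DNA subtracted and 0.828 with equal weight per site. In the same settings no relative log2 ratio by CpG density changed sign where it could be computed; at 60 or more CpGs per kb subtraction leaves no value, since the level of that bin is the background. From 1 to 4 up to 20 to 39 CpGs per kb these were 0.15, -0.0853 and -0.11 with 10 reads in both lines (without the sparsest bin), 0.42, 0.11, -0.0757 and -0.0719 with 20 and 10 reads, 0.54, 0.14, -0.11 and -0.13 with 10 and 1, 0.60, 0.20, -0.0724 and -0.13 with no maximum, and 0.57, 0.16, -0.0911 and -0.14 after subtraction. With equal weight per site they were 0.56, -0.11 and -0.13 (without 5 to 9 CpGs per kb). At 40 to 59 CpGs per kb the value was 0.36 after subtraction, 0.69 with no maximum and 0.67 with equal weight, and at 60 or more it was 1.40 with 20 and 10 reads and 1.57 with no maximum.

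Counts of called tiles depended on coverage and on the interval. Where the read minimum was changed, the minimum number of sites was applied again, so the number of tiles tested changed as well. With 10 reads in both lines, 22 higher and 102 lower 10 kb tiles, 13 higher 50 kb tiles, 20 higher 1 Mb tiles and 15 higher gene bodies were called, and with 20 and 10 reads 7 and 26, 3 and 2, and 0. With 10 and 1 reads the count was 4 lower 50 kb tiles and 121 higher 1 Mb tiles. With no coverage maximum, 0 tiles of 10 kb or 50 kb were called in either direction and 2 of 1 Mb. A 95% interval gave 619 and 1007 tiles of 10 kb, 323 and 18 of 50 kb, and 56 and 26 gene bodies. The variance of the tile alone gave 1705 and 1118, and 919 and 21. The paired interval, added after seeing the data, gave 2928 and 1812, 1106 and 31, and 115 and 51 bodies. A 1.5-fold threshold gave 59 lower 50 kb and 193 higher 1 Mb tiles, centring on the median tile 21 higher 50 kb and 43 higher 1 Mb tiles, shifted borders 3 lower 50 kb tiles, and a floor of 3 reads 121 higher 10 kb tiles. The cause of these shifts was not tested. Of the named tiles and flank classes no value changed sign. The 99% interval of a named tile came to include 0 in 68 cases. Of these cases, 26 arose with no coverage maximum, where this held for every named tile.

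Single-site classes (knockout high, DNMT3A2 high, both high) were 0.147%, 0.478% and 0.00878% at 20 reads in both lines, 0.0330%, 0.0532% and 0.000191% at thresholds of 80% and 20%, and 1.23%, 1.78% and 0.0768% with both lines thinned to 10 reads, so these shares are set by depth as well. The SD of true tile ratios at 10 kb, 50 kb and 1 Mb was 0.26, 0.28 and 0.27 with 2 kb clusters and 0.30, 0.23 and 0.21 with 10 reads in both lines. No paired analysis was possible because each line came as 1 set of values, and for the same reason no run could be left out.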

Other observations

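Of the 10 kb tiles, 638 had fewer than 3 methylated reads in at least 1 line and were left out of the calls, 569 of them through the DNMT3A2 line and 94 through the knockout. The DNMT3A2 line was also the less deeply covered.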
